A study of Mus musculus with 12 samples.

Results

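The 9 genes described here encode the members of activator protein 1 (AP-1) and its stress-response relatives: Fos, Fosb, Fosl1, Fosl2, Jun, Junb, Jund, Atf3 and Atf4. They were taken by name, and a peak was assigned to a gene when it overlapped the RefSeq span on GRCm38 or the 5 kb on either side by at least 1 bp. The gene table, limited to the autosomes, X and Y, held 21883 protein-coding genes, all 9 among them. The peaks come from 6 deposited lists, made by chromatin immunoprecipitation and sequencing with an antibody to MACF1, a protein that links actin filaments to microtubules, in MC3T3-E1, a mouse osteoblast line. There were 3 libraries from control cells and 3 from cells with MACF1 knockdown, each labelled 1, 2 or size3 and each set against its own input library, and the question was where the antibody recovered DNA with and without the knockdown. All libraries came from this line and were made with the anti-MACF1 antibody ab117418; how the knockdown was made, which control construct was used, whether libraries came from separate cultures and what size3 means are not given in the sources used here. An assay of genomic DNA measures neither Macf1 levels nor osteoblast markers, so neither the knockdown nor the cell type was checked.

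AP-1 is a family of dimers of Fos and Jun proteins, which bind DNA through a basic leucine zipper. Fos, Fosb, Jun and Junb are immediate early genes, switched on within minutes of a growth or mechanical signal without new protein synthesis. In bone, Fosl1 (Fra-1), Fosl2 (Fra-2) and a short form of Fosb act in osteoblasts, and gain of Fosl1 or of that form of Fosb raises bone mass in mice. Atf4 is a factor of the integrated stress response that drives amino acid supply and late osteoblast genes such as osteocalcin, and Atf3 is induced by many kinds of stress.

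A peak lay at 6 of the 9 genes in at least 1 knockdown library and at none in the control libraries. In knockdown 1 a peak lay at 5 genes (Fos, Fosb, Fosl2, Jun and Jund), in knockdown size3 at 2 (Fos and Fosl1) and in knockdown 2 at none. Only Fos was reached in 2 libraries. Junb, Atf3 and Atf4 had no peak in any of the 6 lists. These counts lay close to those of genes in general: 57.7% of all protein-coding genes had a peak in at least 1 knockdown library, against 66.7% of the 9 genes. By library, the share of all genes was 43.7% in knockdown 1, 35.4% in knockdown size3, 7.95% in knockdown 2, 5.49% in control size3, 1.38% in control 1 and 0.315% in control 2. It was 6.7% in at least 1 control library and 0.457% in at least 2. Most of the 9 genes are short, with a median of 3385 bp against 17170 bp for all genes. Among the 12240 genes no longer than Fosl2, the longest of the 9 at 21369 bp, 44.1% had a knockdown peak (31.4% in knockdown 1 and 24.0% in knockdown size3). The 6 genes rest largely on 1 library: without knockdown 1 the count was 2.

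**Figure D1:**
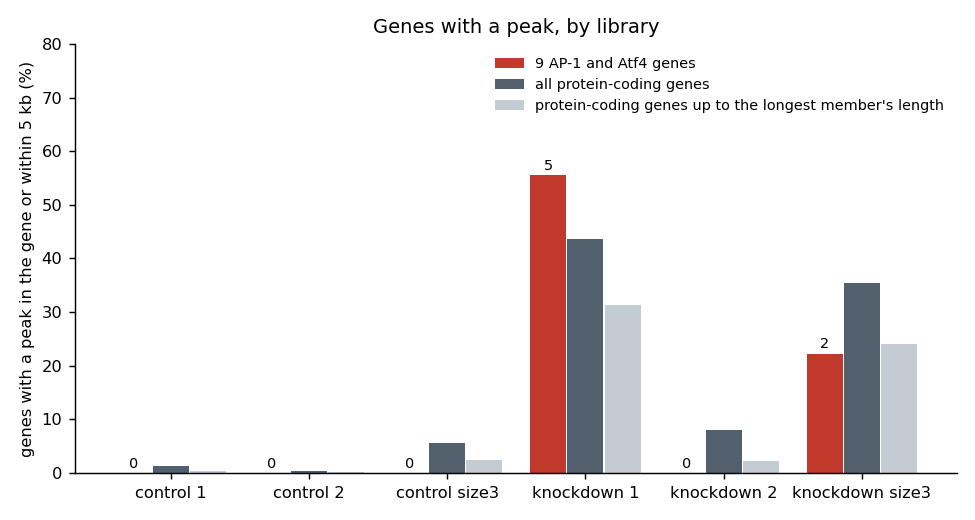
Percent of genes with a peak in the gene or within 5 kb (vertical axis) in each of the 6 libraries, for the 9 AP-1 and Atf4 genes (red, with the number of genes above the bar), all 21883 protein-coding genes (dark grey) and the 12240 genes no longer than Fosl2 (light grey). The red bars stand at 5 of 9 genes in knockdown 1, 2 of 9 in knockdown size3 and 0 in the other libraries.

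Over all protein-coding genes the share with a peak was 2.4% ± 2.73 (SD, n = 3) in control and 29.0% ± 18.7 (SD, n = 3) in knockdown libraries. The difference of 26.6 percentage points had an exact two-sided permutation p of 0.1, the smallest that 20 assignments of 3 against 3 libraries allow, and such a p measures only the spread between these libraries. The groups did not overlap, but with lists cut to the 198 best-scoring peaks each the difference was 0.382 points (exact permutation p = 0.4) and knockdown 2 (0.233%) lay below all 3 control libraries; at a score of at least 100 it was 4.59 points. With all peaks the differences within a label were 42.3 points for label 1, 7.63 for label 2 and 30.0 for size3. The immunoprecipitates held 5575205 to 33085606 reads after duplicate removal. The libraries with peaks at the 9 genes were knockdown 1 (18454330 reads) and knockdown size3 (8175173). Those without were control 1 (26196138), control 2 (33085606), control size3 (10698067) and knockdown 2 (5575205). Any part of depth in this pattern was not tested. The redundant rate, the share of reads removed as duplicates, was 0.51 in knockdown 1, 0.65 in knockdown 2, 0.02 in knockdown size3 and 0.01 to 0.25 in control libraries. A gene without a listed peak may still have had reads, since the lists hold only regions that passed the caller's threshold.

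The sequences at the starts of 8 of the 9 genes were read from RefSeq (GRCm38.p6), 250 bases before to 50 after the first base of the gene; Fosl1 had no entry. The 4 printed here are those of Jun and Fosb, the 2 of these 8 whose start lay under a peak, of Fos, the member with peaks in 2 libraries, and of Atf4, a member with none. They run 5′ to 3′ on the strand of the gene. Jun stands at chr4:95052173-95052472 on the minus strand, Fosb at chr7:19309996-19310295 on the minus strand, Fos at chr12:85473640-85473939 on the plus strand and Atf4 at chr15:80254934-80255233 on the plus strand. Capitals mark matches, on either strand, to TGACNTCA (the cyclic AMP response element and the variant known from Jun), its first 5 letters TGACG, the AP-1 site TGANTCA and the TATA box TATAAA; a match to TGACNTCA with G at its N also holds TGACG.
Jun: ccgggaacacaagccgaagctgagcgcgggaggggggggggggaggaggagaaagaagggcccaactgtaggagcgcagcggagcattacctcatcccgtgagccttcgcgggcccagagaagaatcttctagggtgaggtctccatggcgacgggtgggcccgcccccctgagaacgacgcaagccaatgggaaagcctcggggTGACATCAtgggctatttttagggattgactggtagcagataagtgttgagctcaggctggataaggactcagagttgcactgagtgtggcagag
Fosb: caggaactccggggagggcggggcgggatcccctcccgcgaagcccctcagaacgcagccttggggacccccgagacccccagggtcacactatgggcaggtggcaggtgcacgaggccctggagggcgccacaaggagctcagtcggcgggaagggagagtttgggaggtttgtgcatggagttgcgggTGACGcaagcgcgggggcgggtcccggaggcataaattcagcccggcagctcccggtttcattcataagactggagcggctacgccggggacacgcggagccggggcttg
Fos: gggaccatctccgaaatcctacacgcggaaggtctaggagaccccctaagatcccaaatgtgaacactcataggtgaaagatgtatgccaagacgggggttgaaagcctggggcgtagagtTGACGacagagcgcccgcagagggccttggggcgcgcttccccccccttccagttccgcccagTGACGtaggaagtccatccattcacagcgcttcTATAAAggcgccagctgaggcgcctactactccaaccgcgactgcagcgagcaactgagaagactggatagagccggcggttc
Atf4: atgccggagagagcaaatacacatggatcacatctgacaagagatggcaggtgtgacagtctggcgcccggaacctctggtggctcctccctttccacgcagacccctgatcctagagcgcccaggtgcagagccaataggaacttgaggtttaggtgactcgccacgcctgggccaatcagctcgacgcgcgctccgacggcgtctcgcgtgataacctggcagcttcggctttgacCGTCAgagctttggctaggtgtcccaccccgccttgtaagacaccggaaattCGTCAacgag

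In Jun the match to TGACNTCA lay at -45 to -38, counted from the first base of the gene as 1, and 8.75% of the 21262 promoter windows of protein-coding genes held one. TGACG occurred once in Fosb (-60 to -56), at 2 places in Fos (-129 to -125 and -66 to -62) and, on the other strand, at 2 in Atf4 (-12 to -8 and 41 to 45). It also occurred in Atf3 and Junb, so that 5 of the 8 genes held it, against 23.6% of all windows. TATAAA stood at -33 to -28 in Fos and at 1 to 6 in Junb (12.6% of windows), and none of the 8 held TGANTCA (6.99%). Of other motifs searched on both strands, the E2F site GCGGGAA occurred in Fosb (5.95% of windows), the TCF site CTTTGAT in none (3.22%), the E-box CANNTG in 7 (69.0%) and CCAAT in 4 (38.2%). A match is a description of the letters and shows no binding.

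Most of these starts were rich in CpG. The windows of Fosl2, Atf3, Fosb, Atf4, Junb and Fos held 32, 27, 25, 22, 21 and 20 CpG dinucleotides, against a median of 13 over all windows, with a GC content of 58.7% to 68.3%. Jun held 15 at a GC content of 60.0%. The window of Jund, which lies at the first base of its longest annotated span, held 3 at 46.7%. Of the 10136 windows with an observed-to-expected CpG ratio of at least 0.6, a knockdown 1 peak overlapped 24.2% and a knockdown size3 peak 11.6%; of the 11126 windows below it the shares were 8.5% and 3.83%. The 6 members with the highest CpG counts were above that ratio, and of these only Fosb was overlapped. Jun (ratio 0.594) and Jund (0.184) were below it, and Jun was overlapped.

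Jun, the main DNA-binding partner of Fos and a gene without introns, carried the widest peak of the set. Its peak in knockdown 1 (chromosome 4, 95049852 to 95053758) was 3907 bp wide, held 276 reads and had a fold enrichment of 3.57 over input, a score of 127.25 and a false discovery rate of 2.24%. The deposited score grows with the significance of a peak over its local input (−log10 of its p-value, times 10), and the rate is the share of peaks found as readily after the immunoprecipitate and input are swapped. The peak reached from 1536 bp before the gene start to 2370 bp after it and covered 74.4% of the gene and the whole window printed above. It also covered the near end of Junos, a long non-coding RNA gene that begins 95 bp beyond the span of Jun. In knockdown 1, 95.8% of peaks had a lower score and 95.0% were narrower, while 14.5% had a lower fold. Elsewhere the nearest peak to Jun was 22892 bp away in knockdown size3, 70789 bp in control size3, 355703 bp in knockdown 2, 6234571 bp in control 1 and 24670454 bp in control 2.

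Jund, a Jun gene that is expressed at a steady level in many cells, had a similar peak over the gene body. In knockdown 1 it spanned 70698183 to 70700427 on chromosome 8 (2245 bp), with 176 reads, a fold enrichment of 4.06, a score of 123.27 and a false discovery rate of 1.96%. It covered 78.0% of the gene, began 444 bp after the annotated start and left the promoter window uncovered. Knockdown size3 had a peak on either side of Jund, 12968 bp upstream and 10209 bp downstream, both outside the 5 kb window. Jun and Jund were the members whose peaks had a score of at least 100. Of all protein-coding genes, 9.98% had such a peak in knockdown 1. Junb, the third Jun gene (chromosome 8, 84976909 to 84978748), had none: the nearest peak lay 6469 bp downstream in knockdown 1, across the adjoining ends of Prdx2 and Rnaseh2a, and the next nearest 30846 bp away in knockdown size3.

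Fos, the prototype immediate early gene (chromosome 12, 85473890 to 85477274), was the 1 member with a peak in 2 libraries, and the 2 peaks did not overlap. The knockdown size3 peak (85474012 to 85475157) lay in the first part of the gene, from 122 to 1267 bp after its start, with 36 reads and a fold enrichment of 5.12. The knockdown 1 peak (85475661 to 85476750) lay from 1771 to 2860 bp after the start, with 60 reads and a fold enrichment of 3.91. A gap of 503 bp separated them and their summits were 2006 bp apart. Their scores were 61.26 and 54.91 and their false discovery rates 4.34% and 3.57%. Of the 5131 protein-coding genes with a peak in both of these libraries, 35.1% had peaks that overlapped, as had 44.4% of the 1538 such genes no longer than Fosl2, and in the others, as in Fos, the peaks lay apart. The share of all genes with a peak in at least 2 knockdown libraries was 26.1%, and of genes no longer than Fosl2 it was 13.3%. Downstream of Fos, outside the 5 kb window, the same 2 libraries did share a region: 85487524 to 85488288 in knockdown 1 (35 reads, fold enrichment 4.89) and 85487381 to 85488068 in knockdown size3 (21 reads, 6.83) overlapped by 545 bp, with summits 36 bp apart. It lay 10250 and 10107 bp beyond the end of the gene in the 2 libraries. Control and knockdown 2 peaks came no closer to Fos than 437394 bp.

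**Figure D2:**
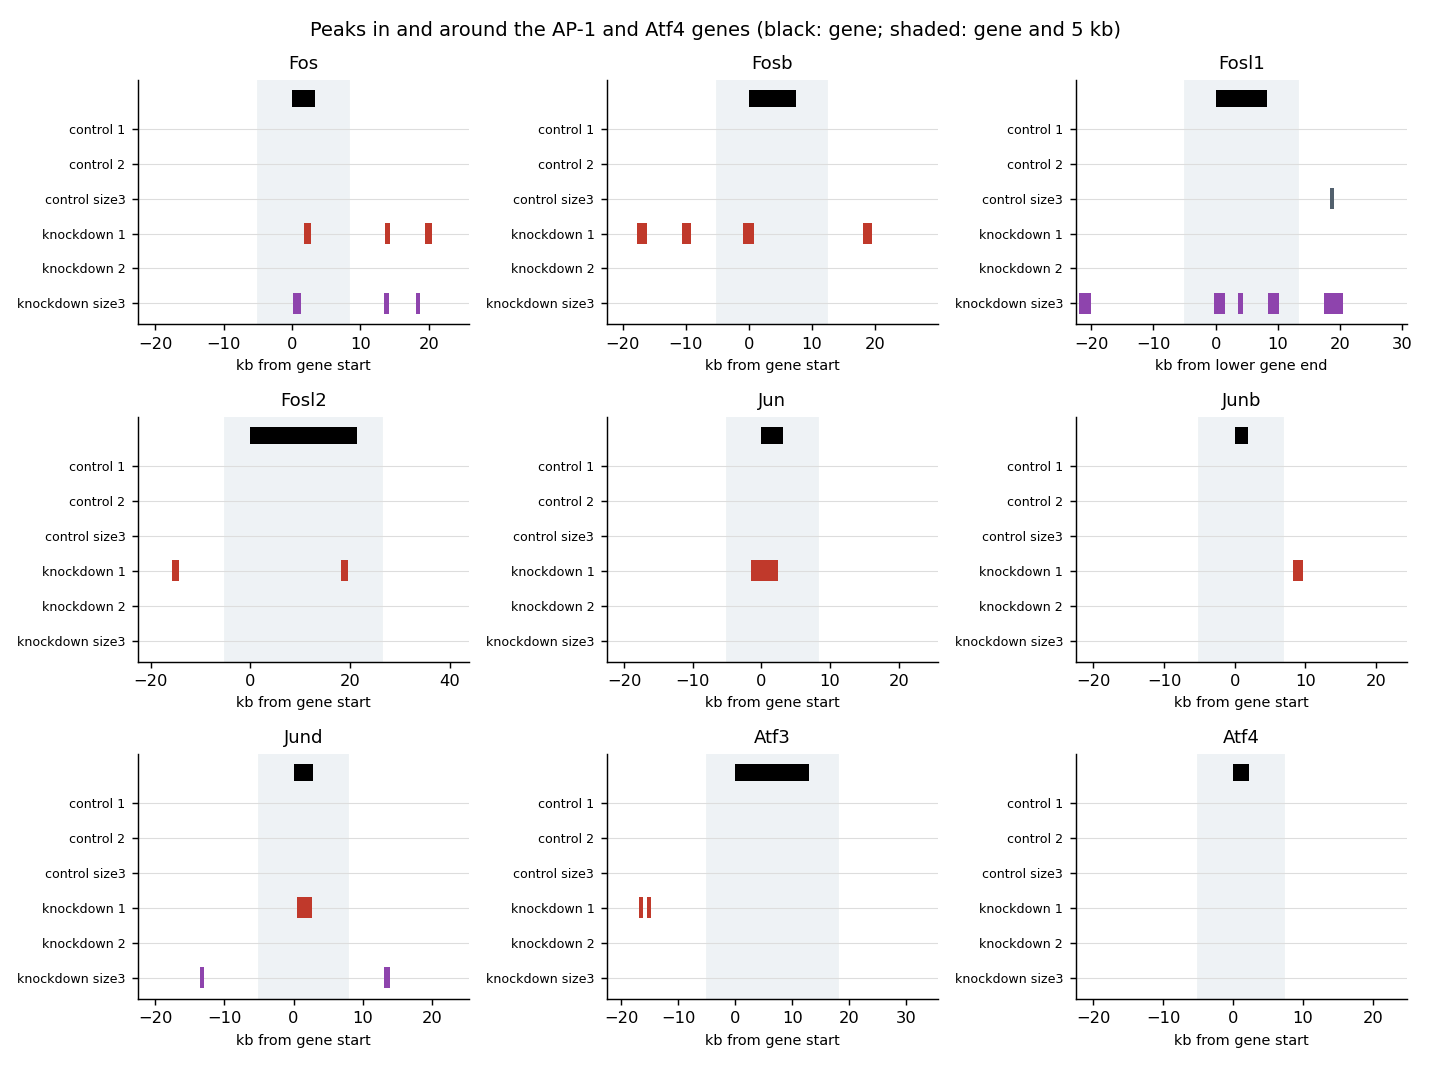
Peaks of the 6 libraries (rows) within 20 kb of each of the 9 genes, by distance in kb from the gene start along its strand (for Fosl1, whose strand is not in the table, from the end with the lower coordinate). The black bar is the gene, shading is the gene and 5 kb, and coloured bars are peaks drawn to scale; the 2 peaks in Fos lie apart, while the pair near 14 kb beyond its start overlaps.

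The genes whose pattern was most like that of Fos, by the distance in log2 fold enrichment over these 2 libraries among 3890 other genes with peaks in the same libraries only, were Dnajb12 (3.93 in knockdown 1 and 5.12 in knockdown size3), Sart1 (3.91 and 5.16) and Map3k11 (3.87 and 5.2). Their distances were 0.00736, 0.0112 and 0.0268. With so many genes and 2 values, near matches are common.

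Fosb, a close relative of Fos on chromosome 7 (19302696 to 19310118), had its knockdown 1 peak at the gene start. The peak (19309283 to 19310996, 1714 bp) reached from 878 bp before the start to 835 bp after it and covered the whole promoter window, with 102 reads, a fold enrichment of 3.71, a score of 59.47 and a false discovery rate of 2.99%. Together with Jun it made 2 of the 8 genes with a known start whose promoter window lay under a knockdown 1 peak, against 16.7% of 17491 genes. In knockdown size3 this was 0 of 8, against 8.21%. Fosl1 is not among the 8, but in knockdown size3 it had peaks across its lower end and 206 bp beyond its upper end. A promoter window of the same size would meet a knockdown size3 peak whichever end of Fosl1 is its start. Further knockdown 1 peaks flanked Fosb at 9140 and 16144 bp upstream and 10670 bp downstream. Knockdown size3 came no closer than 23906 bp.

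Fosl1 showed the reverse use of libraries, with 3 peaks in knockdown size3 and none within 39124 bp in knockdown 1. The first (chromosome 19, 5447409 to 5449169) crossed the lower end of the gene, with 53 reads, a fold enrichment of 5.12 and a false discovery rate of 2.2%. The second (5451228 to 5452170) lay inside it, with 26 reads and a fold enrichment of 5.78. The third (5456144 to 5457861) lay 206 bp beyond the upper end, with 65 reads and a fold enrichment of 4.28, and overlapped the upper end of Ccdc85b, a gene whose span shares 2776 bp with Fosl1. Together they held 144 reads and covered 4422 bp. Genes with 3 or more peaks in this window made up 6.05% of all genes in knockdown size3, and 1.09% of those no longer than Fosl2. A further knockdown size3 peak, 9282 bp away at 5465220 to 5468240 over Ctsw, overlapped the only control peak within 20 kb of any of the 9 genes, at 5466063 to 5466709 in control size3. That control peak held 19 reads, with a fold enrichment of 9.48 and a false discovery rate of 58.54%.

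Fosl2, the longest of the 9 genes (chromosome 5, 32136472 to 32157840), had its only peak far from the start. In knockdown 1 it spanned 32154699 to 32156145, from 18227 to 19673 bp after the gene start, with 87 reads, a fold enrichment of 3.88, a score of 67.47 and a false discovery rate of 2.21%. Its promoter window, with the most CpG of the 8, had no peak.

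The 2 activating transcription factor genes had none. Atf3 (chromosome 1, 191170296 to 191183333) lay 14824 bp from the nearest knockdown 1 peak, 28887 bp from that of knockdown size3 and 161363 bp from that of control size3. Atf4 (chromosome 15, 80255184 to 80257545) lay 22995 bp from the nearest peak in knockdown 1, 59271 bp in knockdown size3, the farthest of the 9 genes in that list, and 2422814 bp in control size3. The assignment of genes by distance left little in doubt near its limit: the farthest peak counted lay 206 bp from its gene (Fosl1) and the nearest one not counted 6469 bp (Junb).

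**Figure D3:**
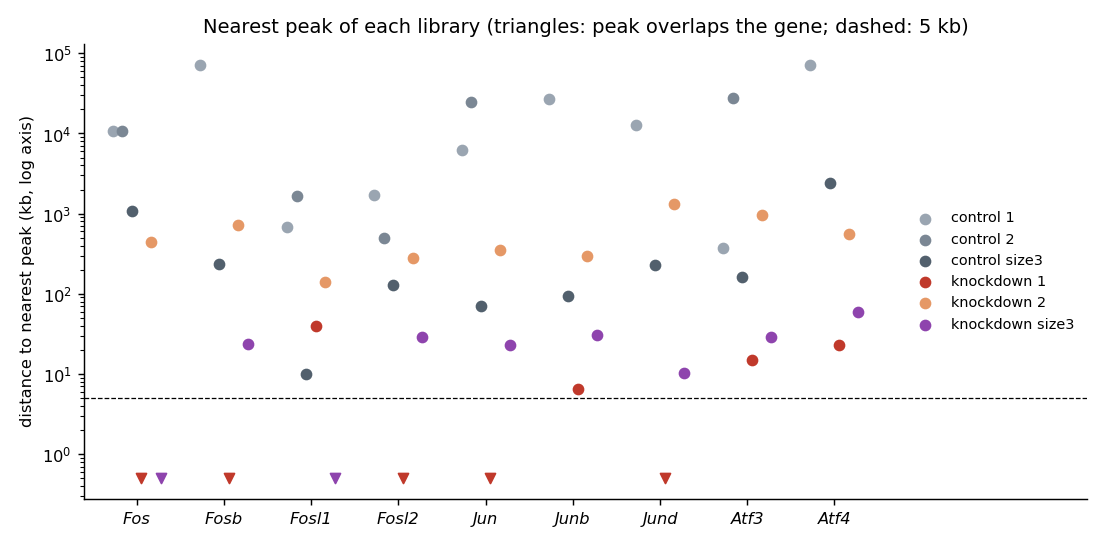
Distance in kb (log axis) from each of the 9 genes to the nearest peak of each library, with triangles at the bottom where a peak overlaps the gene and a dashed line at 5 kb. Control 2 had no peak on the chromosomes of Fosb, Junb, Jund and Atf4 and shows no point there; outside knockdown 1 and knockdown size3 the closest peak was 10125 bp away, near Fosl1 in control size3.

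The 9 peaks at these genes shared a shape. All 5 in knockdown 1 were wider and held more reads than the median peak of that list and had a lower fold enrichment, and the same held for all 4 in knockdown size3. Median width was 1714 bp for the 5 peaks and 990 bp for the 21398 peaks of knockdown 1, with medians of 102 and 46 reads and fold enrichments of 3.88 and 4.98. In knockdown size3 the medians were 1432 and 647 bp, 44.5 and 17 reads, and 5.12 and 8.1. The fold enrichment of the 9 peaks was 3.57 to 4.06 in knockdown 1 and 4.28 to 5.78 in knockdown size3, and all 9 had a false discovery rate of at most 5% (1.96% to 4.68%). So had 21159 of the 21398 peaks of knockdown 1 and 10161 of the 17592 peaks of knockdown size3. By score, 3 of 5 and 3 of 4 lay above the median of their list. In knockdown 1 the share of peaks with a lower score ran from 22.8% for Fos to 95.2% for Jund and 95.8% for Jun. In knockdown size3 it ran from 45.0% to 82.4%, both at Fosl1. Peaks near other genes had such a shape too: the 2765 knockdown 1 peaks over any promoter window had a median width of 1687 bp, 115 reads and a fold enrichment of 3.88. In knockdown size3 the 1350 such peaks had medians of 932 bp, 25.5 reads and 6.96, narrower and with a higher fold than the 4 peaks at Fos and Fosl1. Of the 9 peaks, only those of Jun and Fosb in knockdown 1 overlapped the promoter window of their own gene. Fosl1 had no window to compare. Peaks in or within 5 kb of any gene no longer than Fosl2 had medians of 1631.5 bp, 95.5 reads and 4.09 in knockdown 1. In knockdown size3 these were 837 bp, 23 reads and 7.0. Scores and folds are the authors' values and describe peaks within 1 list.

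**Figure D4:**
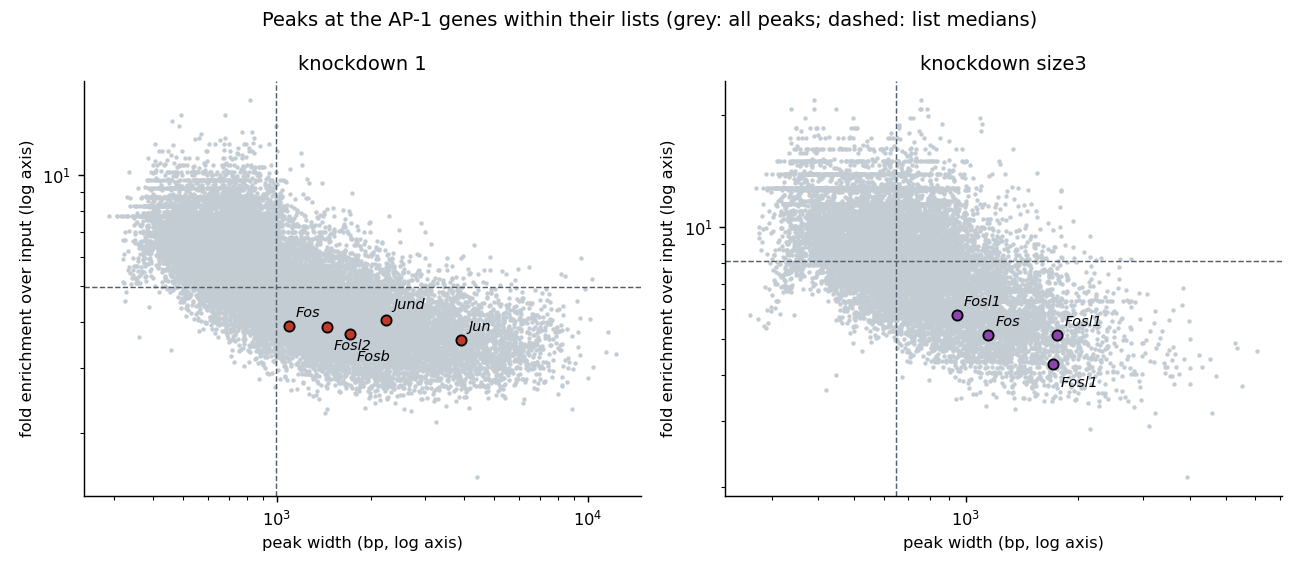
Peak width in bp against fold enrichment over input (both log axes) for all peaks (grey) of knockdown 1 (left) and knockdown size3 (right), with list medians dashed and the peaks at AP-1 genes in colour. All 9 coloured points lie right of the median width and below the median fold of their list.

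Genes around AP-1 and Atf4 were described with 5 lists, of which 146 of 147 entries matched a gene. Of the 146 genes, 113 (77.4%) had a peak in at least 1 knockdown library and 50 (34.2%) in at least 2, against 57.7% and 26.1% of all genes. Their median length was 12610 bp. In knockdown 1 the share was 54.8% (all genes 43.7%), in knockdown size3 52.1% (35.4%) and in knockdown 2 7.53% (7.95%). A control peak lay at 9 of the 146 genes, against 6.7% of all genes. In control size3 it was 8 (5.48%), against 5.49% of all genes. Among the 91 no longer than Fosl2, 64 (70.3%) had a knockdown peak, against 44.1% of all genes of such length. No list was tested against others.

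**Figure D5:**
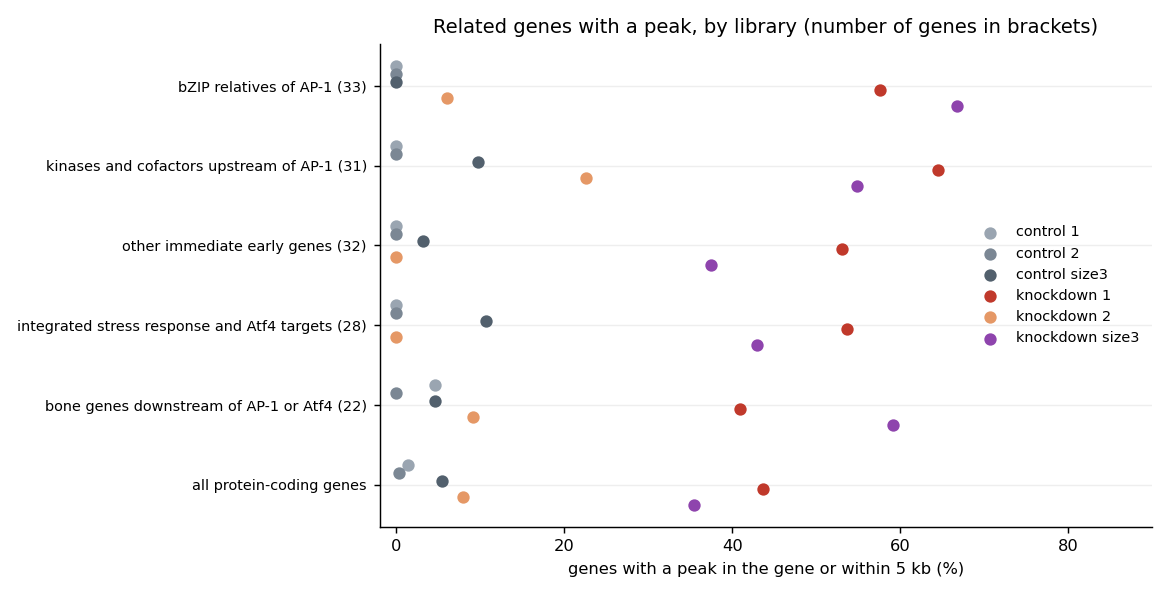
Percent of genes with a peak in the gene or within 5 kb (horizontal axis) in each of the 6 libraries (colours) for the 5 lists of related genes and for all protein-coding genes. In every list the points of knockdown 1 and knockdown size3 lie apart from those of the other 4 libraries, as they do for all genes.

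Relatives of AP-1 with a leucine zipper had a peak in a knockdown library at 29 of 33 genes (87.9%, against 57.7% of all genes); the other 4 were Atf2, Crem, Creb3 and Nfe2l2. Among the 21 no longer than Fosl2 it was 20 (95.2%), against 44.1% of all genes of such length. Creb5, which encodes a partner of Jun, was reached in all 3 knockdown libraries at different places in its 413139 bp, in knockdown 2 by a peak of 12 reads with a false discovery rate of 100%. Of the 4513 peaks of knockdown 2, 51 had a false discovery rate of at most 5%. Creb3l1, a factor that acts in osteoblasts to raise type I collagen, had 4 peaks in each of knockdown 1 and knockdown size3, none overlapping. Batf3 (fold enrichment 4.18 in knockdown 1 and 9.98 in knockdown size3) and Atf6, a sensor of protein folding stress (best values 9.7 and 9.24), were reached in the same 2 libraries. Creb3l2 was reached in knockdown size3 (20 reads) and knockdown 2 (9 reads, false discovery rate 100%). No control peak lay at any of the 33, and one lay at only 6.7% of all genes.

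Of 32 other immediate early genes, 23 (71.9%) had a knockdown peak, against 57.7% of all genes, and of the 31 no longer than Fosl2 it was 22 (71.0%), against 44.1%. Peaks of knockdown 1 and knockdown size3 overlapped in 5 of the 6 that had both (Egr3, Egr4, Dusp2, Dusp6 and Klf10). In the zipper, kinase, stress response and bone lists this was 6 of 12, 5 of 11, 3 of 7 and 3 of 8. Over all 5 lists it was 22 of 44 (50.0%). Of all genes with peaks in both it was 35.1%, and of those no longer than Fosl2 it was 44.4%. Egr3, a zinc finger factor gene on chromosome 14, had 241 reads (fold enrichment 3.46) in knockdown 1 and 14 reads (8.86) in knockdown size3, with 70077778 to 70078391 in common. Egr4 (chromosome 6) had 85513299 to 85514055 in common. Its knockdown 1 peak held 253 reads and had a score of 304.68, but a false discovery rate of 100%. For Dusp6, which encodes a phosphatase that turns off ERK, the knockdown 1 peak held 313 reads and took in that of knockdown size3 at 99261077 to 99261643 on chromosome 10. Dusp2, a related phosphatase gene, shared 127335856 to 127336722 on chromosome 2. The orphan receptor gene Nr4a3 had separate peaks in the 2 libraries. Dusp1 had the list's only control peak, 4190 bp from the gene in control size3, with a false discovery rate of 92.07%.

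Kinases and cofactors upstream of AP-1 had a knockdown peak at 27 of 31 genes (87.1%, against 57.7% of all genes), and at 9 of the 12 no longer than Fosl2 (75.0%, against 44.1%); their median length of 58067 bp was the greatest of the 5 lists. Map3k5, a stress kinase that feeds the JNK and p38 pathways, and Mrtfa, a cofactor of serum response factor, were reached in all 3 knockdown libraries, in knockdown 2 by peaks of 8 to 11 reads with a false discovery rate of 100%. The peaks at one end of Map3k5 (chromosome 10, 19933449 to 19935270 in common) had 229 reads in knockdown 1 (fold enrichment 3.02) and 52 reads in knockdown size3 (5.04). Mapk14, which encodes p38 alpha, had peaks in knockdown 2, knockdown size3 and control size3. Their false discovery rates were 100% in knockdown 2 (8 and 15 reads) and 5.26% to 6.82% in knockdown size3. The control size3 peak, 3924 bp from the gene, had a rate of 91.92%. Map3k7 and Mrtfb were reached in knockdown 1 and knockdown size3.

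In the integrated stress response, 20 of 28 genes had a knockdown peak (71.4%, against 57.7% of all genes), and 8 of the 14 no longer than Fosl2 (57.1%, against 44.1%). The genes of 2 kinases that raise Atf4 translation, Eif2ak3 (PERK) and Eif2ak4 (GCN2), had peaks in knockdown 1 and knockdown size3 at separate places. Slc3a2, an amino acid transporter subunit gene that Atf4 regulates, had 8713324 to 8714386 on chromosome 19 in common, with fold enrichments of 3.7 and 7.88. The transfer RNA synthetase gene Cars was reached in those libraries, and Gars in knockdown size3 and control size3. That control peak had a false discovery rate of 91.09%. 

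Of 22 bone genes that AP-1 or Atf4 act on, 14 had a knockdown peak (63.6%, against 57.7% of all genes), and 5 of the 13 no longer than Fosl2 (38.5%, against 44.1%). Runx2, the master factor of the osteoblast lineage, had peaks in all 3 knockdown libraries and in control size3, where 44546327 to 44546949 on chromosome 17 was in common with knockdown size3; that control peak had a false discovery rate of 91.28%, and the knockdown 2 peak (10 reads) one of 100%. Knockdown 1 and knockdown size3 had 44776706 to 44777234 in common. Alpl, the alkaline phosphatase of mineralising cells, had a peak of 4.35-fold enrichment in knockdown 1 and a separate one of 9.42-fold in knockdown size3. Tnfsf11, which encodes the osteoclast factor RANKL, and Esr1 were reached in the same 2 libraries, and Txlng in knockdown size3 and, by a peak of 8 reads with a false discovery rate of 100%, in knockdown 2. Of 2 osteocalcin genes, Bglap had no peak in any library and Bglap2 had 1 in knockdown size3 with a fold enrichment of 9.24. Ibsp, bone sialoprotein, carried the 1 peak of control 1 among all 146 genes, with 26 reads, a fold enrichment of 4.28 and a false discovery rate of 100%.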

How the data were processed

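MACF1 immunoprecipitates and inputs of MC3T3-E1 cells were sequenced in 12 samples (3 per group and kind). Per the submitters' processing notes, the authors trimmed reads with cutadapt and aligned them with Bowtie2 to GRCm38. Each library was then compared with its input alone by MACS 1.4.2, which used unique alignments, kept 1 read per position and took a band of 300 bp and a p-value cutoff of 1.00e-05, per the file headers. The deposited counts are whole reads per peak after duplicate removal, the deposited score is −log10 of the p-value multiplied by 10, the deposited fold enrichment is a ratio to the input, the deposited false discovery rate is in percent, and width and summit are in bp. Precision is limited by the 26 to 276 reads per peak at the 9 genes.

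Genes and promoter windows came from RefSeq tables of GRCm38.p6, with strand from the promoter table; exons and introns were not analysed here. A gene had a peak if one overlapped its span or 5 kb around it by at least 1 bp. Shares of genes were compared by exact permutation over libraries with Python 3.11.15 and pandas 2.3.3; counts at the 9 genes and the lists were described without a test. The overlap step was tested on simulated data. The 9 genes and the 5 lists were chosen with earlier results of these data known. From the lists, genes with peaks in at least 2 libraries were named, at most 5 per list, by number of libraries and then highest fold enrichment; Klf10, Dusp1, Bglap, Bglap2, Ibsp and the 4 zipper genes without a peak were named after their values were seen. Alternatives were windows of 0, 1 and 10 kb, a score of at least 100, a false discovery rate of at most 5%, equal list lengths, summits, the label as a block and each library left out. A window of 20 kb, counts over any library of a group and the restriction to short genes were added after seeing the data.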

Additional observations from a re-analysis of the deposited data

How the results depend on the processing

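The share of genes with a peak was higher in knockdown under every alternative, by 0.382 points (equal list lengths, exact permutation p = 0.4) to 36.3 points (20 kb window), and by 19.3 to 37.2 points with 1 library left out. With the replicate label as a block the paired difference was 26.6 points (exact sign-flip p = 0.25, the smallest that 8 sign patterns allow); nothing in the labels says that libraries of the same label share a culture or day. With windows of 0, 1 and 10 kb, summits, or a false discovery rate of at most 5%, the number of the 9 genes with a peak stayed at 5 or 6 in knockdown 1 and at 2 in knockdown size3, and at 0 elsewhere. Under these settings the share of all genes was 37.5% to 49.4% in knockdown 1 and 25.1% to 40.8% in knockdown size3. At a score of at least 100, 2 remained in knockdown 1 (Jun and Jund), 2 in any knockdown library, 0 in knockdown size3 and 0 in at least 2 libraries. At that score the share of all genes was 9.98% in knockdown 1 and 3.55% in knockdown size3. With 198 best-scoring peaks per list all of these counts were 0, so no peak at these genes was among the 198 strongest of its list. With lists of this length only 1.18% of all genes had a peak in knockdown 1 and 0.964% in knockdown size3. A 20 kb window gave 1 gene in control size3 and in any control library (Fosl1), and 2 genes in at least 2 knockdown libraries (Fos and Jund). With that window 8.5% of all genes had a peak in control size3. Leaving out 1 library gave 2 to 6 genes with a knockdown peak (2 without knockdown 1) and 0 to 1 in at least 2 knockdown libraries (0 without knockdown 1 and 0 without knockdown size3). The cause of the drop under stricter peaks was not tested. Depth differed between libraries, so an absent peak sets no upper limit on recovered DNA.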
